A study of Mus musculus with 16 samples.

Results

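The chemokine genes Cxcl9, Cxcl10, Cxcl11 and Cxcl16 were examined for open chromatin in bone marrow-derived macrophages (BMDM). ATAC-seq was used, an assay that marks DNA free of nucleosomes by letting the Tn5 transposase cut and tag it. Overlapping peaks of the 4 deposited peak lists, 1 per treatment group, were merged into regions, and every region whose midpoint lay at most 100 kb from a transcription start site (TSS) of the 4 genes was taken. These were 32 of 37648 regions in all. The neighbouring Cxcl9, Cxcl10 and Cxcl11 genes on chromosome 5 had 14 of them, of which 12 lay within 100 kb of all 3 genes and 2 of Cxcl10 and Cxcl11 alone. Cxcl16, on chromosome 11, had 18.

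The macrophages were grown from bone marrow of wild-type female C57BL/6J mice aged 8 to 10 weeks and deprived of serum for 1 day. On day 8 the Veh group received DMSO for 3 h, and the T0 group received T0901317, a synthetic agonist of the liver X receptor (LXR), at 500 nM for 3 h. The LPS group was given DMSO in the same way and then lipopolysaccharide, a ligand of TLR4, at 10 ng/mL for 2 h, and the T0-LPS group was given T0901317 and then LPS without a change of medium. Each group comprised 4 libraries of 50000 cells, but peaks were called on the 4 libraries of a group together, so that no value below has a replicate error and no test was made. Whether the libraries of a group came from separate mice was not given in the sources used here. Groups with LPS also spent 2 h longer in culture, and the 2 cannot be told apart. The agonist stayed in the medium of the T0-LPS group during these 2 h, so that this group also had agonist for longer than the T0 group.

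Each peak carried a score from the peak caller, which is larger for stronger peaks and which grows with sequencing depth. Levels are therefore given as the percentile of the score among all peaks of the same list, and differences between lists in percentile points. Where 4 percentiles follow each other without names, they stand for Veh, T0, LPS and T0-LPS in this order. A region absent from a list may have been called and then removed by the enhancer filter that was applied before deposition. The numbers in the peak names were taken to skip where a peak was removed, and a list is said below to have room for a removed peak where they skip between the peaks on either side.

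CXCL9, CXCL10 and CXCL11 are secreted ligands of the receptor CXCR3 and attract activated T cells and natural killer cells. Their genes are known targets of the interferon pathway, in which the kinases JAK1, JAK2 and TYK2 activate STAT factors and induce the IRF factors, and Cxcl10 in particular is also a known target of NF-kB downstream of TLR4. CXCL16 is made as a transmembrane protein that binds CXCR6 and takes up oxidized lipoprotein, and the proteases ADAM10 and ADAM17 release its soluble form. LXR is a nuclear receptor that senses oxysterols and is known both to activate lipid genes and to restrain inflammatory genes in macrophages.

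In GRCm38 all 4 genes lay on the minus strand. Cxcl9 (ENSMUSG00000029417.9) spanned chr5:92321347-92328079, Cxcl10 (ENSMUSG00000034855.13) chr5:92346638-92348889, and Cxcl11 (ENSMUSG00000060183.6), annotated as a polymorphic pseudogene in this reference strain, chr5:92359544-92365485. The TSS of Cxcl9 lay 20810 bp from that of Cxcl10, which lay 16596 bp from that of Cxcl11. Both Cxcl10 and Cxcl11 lie within introns of Art3, a gene of the opposite strand. Cxcl16 (ENSMUSG00000018920.11) spanned chr11:70453983-70459984, and its TSS lay 551 bp from the start of Zmynd15.

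The sequences shown first are the 250 bases before the TSS of the 2 members that were in the RefSeq promoter table (GRCm38.p6), Cxcl10 and Cxcl9, because the Cxcl10 promoter held a peak in every list and the Cxcl9 promoter in none. Both are written along the minus strand. Capitals mark matches to 6 consensus motifs searched on both strands: NF-kB, IRF/ISRE (GAAANNGAAA), STAT/GAS (TTCNNNGAA), AP-1 (TGANTCA), PU.1 (GAGGAAGT) and the nuclear receptor half-site (AGGTCA). None of the matches marked below overlapped a match to another motif. The Cxcl10 promoter had an IRF/ISRE match 203 bp before the TSS, NF-kB matches at 149 and 93 bp, and an AP-1 match at 67 bp, in that order in the line below. The Cxcl9 promoter had a nuclear receptor half-site 79 bp before the TSS and no match to the other 5 motifs. Of 32841 promoters of this length, 3.90% held an NF-kB match, 2.98% an IRF/ISRE match, 7.02% a STAT/GAS match, 6.75% an AP-1 match, 2.44% a PU.1 match and 14.0% a half-site.
Cxcl10 promoter, chr5:92348890-92349139, minus strand: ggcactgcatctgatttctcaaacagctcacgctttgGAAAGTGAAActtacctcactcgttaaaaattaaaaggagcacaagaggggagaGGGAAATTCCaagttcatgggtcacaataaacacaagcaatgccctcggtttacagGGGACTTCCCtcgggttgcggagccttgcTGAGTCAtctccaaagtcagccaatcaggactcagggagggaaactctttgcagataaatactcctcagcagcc
Cxcl9 promoter, chr5:92328080-92328329, minus strand: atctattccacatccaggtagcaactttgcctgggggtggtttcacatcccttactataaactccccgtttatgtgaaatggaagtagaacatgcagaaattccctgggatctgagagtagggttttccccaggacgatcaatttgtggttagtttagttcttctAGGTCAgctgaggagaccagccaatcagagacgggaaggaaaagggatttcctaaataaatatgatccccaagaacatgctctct

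The central 200 bp of 5 regions outside promoters follow, read from the GRCm38.p6 genome along the plus strand. That upstream of Cxcl9 was the region nearest its TSS and held the only IRF/ISRE match among the central windows of the 32 regions. The IRF/ISRE match of the Cxcl10 promoter lay inside its region but outside the central 200 bp. Those 4863 bp upstream of Cxcl10, 9431 bp upstream of Cxcl11 and 7996 bp upstream of Cxcl16 held the NF-kB matches found outside the Cxcl10 promoter, with a STAT/GAS match beside it near Cxcl10 and an AP-1 match near Cxcl16. That 5055 bp upstream of Cxcl11 had a peak in the LPS list alone and held an AP-1 match.
Cxcl9 upstream 4490 bp, chr5:92332470-92332669, plus strand: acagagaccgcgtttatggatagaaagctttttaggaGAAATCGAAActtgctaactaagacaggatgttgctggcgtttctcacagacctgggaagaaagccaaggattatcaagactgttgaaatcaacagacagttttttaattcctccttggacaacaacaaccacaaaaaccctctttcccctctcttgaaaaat
Cxcl10 upstream 4863 bp, chr5:92353653-92353852, plus strand: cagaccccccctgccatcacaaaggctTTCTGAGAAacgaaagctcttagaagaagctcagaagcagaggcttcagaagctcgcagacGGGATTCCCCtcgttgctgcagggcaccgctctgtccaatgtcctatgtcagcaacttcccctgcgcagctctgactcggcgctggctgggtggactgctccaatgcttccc
Cxcl11 upstream 5055 bp, chr5:92370440-92370639, plus strand: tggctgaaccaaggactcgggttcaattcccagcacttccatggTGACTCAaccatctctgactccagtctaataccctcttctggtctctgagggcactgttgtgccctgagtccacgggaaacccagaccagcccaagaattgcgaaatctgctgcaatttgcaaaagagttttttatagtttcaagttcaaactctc
Cxcl11 upstream 9431 bp, chr5:92374816-92375015, plus strand: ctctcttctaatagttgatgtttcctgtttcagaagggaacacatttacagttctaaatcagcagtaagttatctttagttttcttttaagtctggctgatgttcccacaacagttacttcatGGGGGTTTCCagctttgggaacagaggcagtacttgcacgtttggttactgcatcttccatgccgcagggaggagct
Cxcl16 upstream 7996 bp, chr11:70467881-70468080, plus strand: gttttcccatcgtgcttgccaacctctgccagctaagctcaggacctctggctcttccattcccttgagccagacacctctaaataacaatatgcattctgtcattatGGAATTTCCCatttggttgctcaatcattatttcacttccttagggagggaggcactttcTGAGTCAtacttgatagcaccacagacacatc

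The region at the Cxcl10 promoter (chr5:92348775-92349210, midpoint 103 bp upstream of the TSS) was accessible in all groups and far stronger with LPS. Its score was 297 in Veh and 149 in T0, and 606 in LPS and 507 in T0-LPS, which placed it at percentile 40.1, 19.6, 79.0 and 75.2 of these lists. The lists without LPS thus held it among their weaker peaks and the lists with LPS in their upper part. Against Veh it was 38.9 points higher in LPS, and only 0.829% of all regions shared by these lists were higher by as much. Against T0 it was 55.6 points higher in T0-LPS, as far as 0.343% of all shared regions. It was also wider with LPS, with widths of 288 and 273 bp in Veh and T0 and of 435 and 397 bp in LPS and T0-LPS. T0 without LPS differed from Veh by -20.5 points, and 9.67% of all shared regions were lower by as much. In stimulated cells the difference was small, at -3.75 points for T0-LPS against LPS, a fall that 40.7% of all shared regions matched or passed. Ranked among the 14 regions of the cluster, this promoter had rank 9 in Veh and in T0 and rank 5 in LPS and in T0-LPS, where rank 1 is the strongest.

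A percentile also depends on which peaks the list holds. The T0 list had 29839 peaks, against 35551 in Veh, and the 5 member regions that it lacked were weak in Veh, at percentiles of 4.80 to 19.8. A list that lacks weak peaks ranks the others lower, so that a percentile was also computed among the 26439 regions with a peak in every list. On that scale the Cxcl10 promoter stood at 21.8 in Veh and 13.3 in T0, and 73.9 in LPS and 71.1 in T0-LPS. The difference for T0 against Veh was then -8.42 points, while the difference for LPS against Veh was 52.1 points.

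A second region of Cxcl10, 4863 bp upstream of its TSS in an intron of Art3 (chr5:92353527-92353978), was strong in every list. Its percentile was 71.1 in Veh and 81.0 in T0, and 79.2 in LPS and 78.1 in T0-LPS. It and the region at Scarb2 described below were the 2 of 11 shared regions of the cluster that stood higher in T0 than in Veh, here by 9.85 points, and 2.06% of all shared regions were higher by as much. Unlike the promoter, it was not higher in T0-LPS than in T0, with a difference of -2.92 points.

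No list held a peak at the Cxcl9 promoter. The nearest region lay 4490 bp upstream of the Cxcl9 TSS (chr5:92332351-92332788), in an intron of Art3 and within 1 kb of the Art3 start. Its score was 98 in Veh, 226 in LPS and 149 in T0-LPS, at percentile 4.80, 34.7 and 21.4. The T0 list had no peak there and no room for a removed peak. This region was weak in unstimulated cells and 29.9 points higher in LPS than in Veh, a difference that 1.71% of all shared regions reached. T0-LPS differed from LPS by -13.3 points, and 12.4% of all shared regions were lower by as much. The peak was 237 bp wide in Veh, and its width was 436 bp with LPS alone and 438 bp with both agents.

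Upstream of Cxcl11, in Art3 introns, 5 regions lay 3153 to 10075 bp from the TSS, and they did not follow 1 pattern. The nearest, 3153 bp upstream (chr5:92368488-92368788), was at percentile 30.3 in Veh and 15.1 in T0, and 37.0 in LPS and 25.0 in T0-LPS. The next, 3799 bp upstream (chr5:92369120-92369449), was at 77.5, 68.9, 57.5 and 52.0 in the same order. It thus stood lower in both lists with LPS, and its rank among the 14 regions was 3 in Veh and 9 in T0-LPS. Its difference of -20.0 points for LPS against Veh was matched or passed by 9.12% of all shared regions, and its difference of -16.9 points for T0-LPS against T0 by 8.02%. Going outward, the region 9431 bp upstream (chr5:92374668-92375164) was at percentile 65.8 in Veh and 54.9 in T0, and 84.1 in LPS and 89.4 in T0-LPS. Its rank in the cluster was 2 in both lists with LPS, 6 in Veh and 7 in T0. The difference of 18.2 points for LPS against Veh was reached by 4.65% of all shared regions, and that of 34.5 points for T0-LPS against T0 by 1.89%.

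The remaining regions upstream of Cxcl11 were weak. That 5055 bp upstream (chr5:92370439-92370641) had an LPS peak (score 130, percentile 14.1) and no peak or room for one in the other 3 lists. That 10075 bp upstream (chr5:92375405-92375715) was at percentile 21.4 in Veh, 17.9 in T0 and 2.34 in LPS, and it was absent from T0-LPS, whose numbering left room for 1 removed peak. The latter, less than 1 kb from the strong region at 9431 bp, thus stood lower with LPS while its neighbour stood higher.

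**Figure D1:**
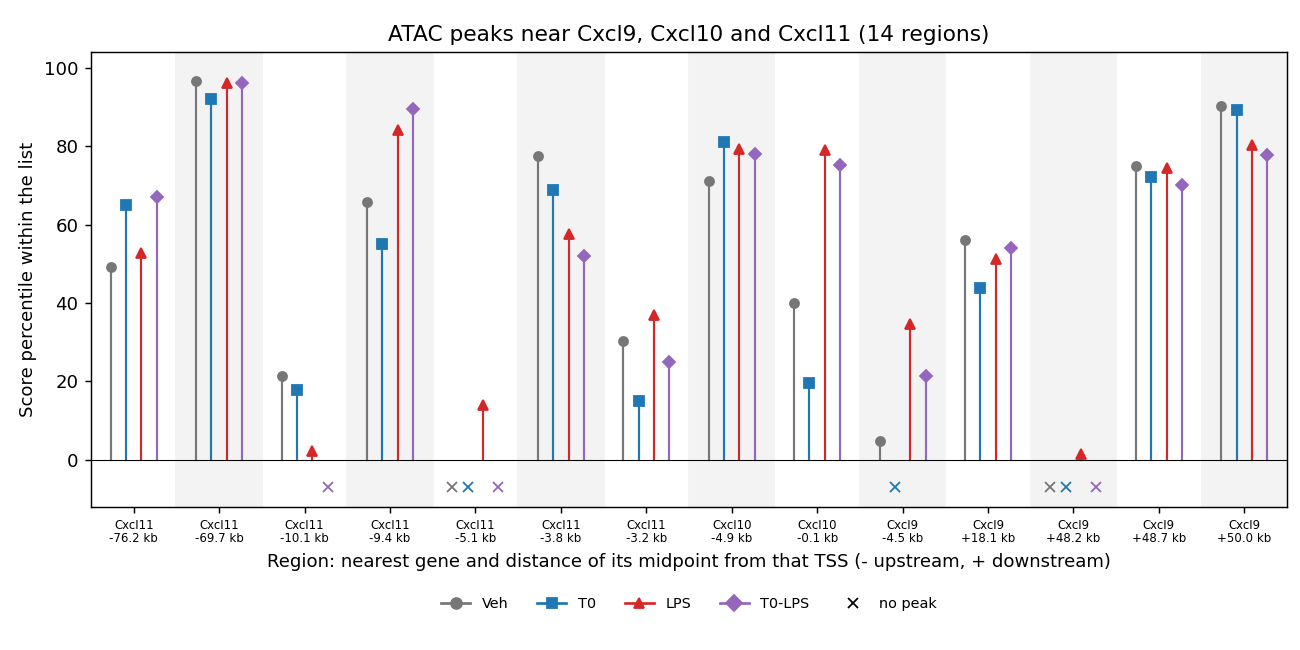
Score percentile within the list (vertical axis) of the 14 regions near Cxcl9, Cxcl10 and Cxcl11, in genome order reversed so that upstream lies to the left, for Veh (grey circles), T0 (blue squares), LPS (red triangles) and T0-LPS (purple diamonds), with a cross where a list had no peak. The Cxcl10 promoter stood at 40.1 and 19.6 without LPS and at 79.0 and 75.2 with LPS, while the region 3.8 kb upstream of Cxcl11 went the other way, from 77.5 in Veh to 52.0 in T0-LPS.

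The other regions of the cluster lay at neighbouring genes or between them. The strongest lay at the start of Nup54 (chr5:92434702-92435611), a nuclear pore gene, at percentile 96.5 in Veh and 91.9 in T0, and 96.0 in LPS and 96.1 in T0-LPS. The region at the start of Naaa (chr5:92277703-92278413), which encodes a lipid amidase, was at 90.3, 89.1, 80.2 and 77.7, and its difference of -11.4 points for T0-LPS against T0 was one of the 2 lowest of the 23 regions shared by these lists. The region at the start of Sdad1 (chr5:92309747-92310206) was at 56.2, 43.9, 51.3 and 54.0, and an intergenic one beside Naaa (chr5:92279229-92279577) at 75.0, 72.1, 74.3 and 70.1. A further intergenic region, 48163 bp downstream of the Cxcl9 TSS (chr5:92279812-92280021), had an LPS peak at percentile 1.64, among the weakest of that list, and neither a peak nor room for one elsewhere. At Scarb2, a lysosomal membrane gene, a region 76198 bp upstream of the Cxcl11 TSS (chr5:92441519-92441848) was at 49.2 in Veh and 65.0 in T0, and 52.7 in LPS and 67.0 in T0-LPS. It stood higher in both lists with T0 than in the matching lists without it, by 15.7 points without LPS, which 0.367% of all shared regions reached, and by 14.3 points with LPS, which 3.22% reached.

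At Cxcl16, the region over the TSS (chr11:70459488-70460111, midpoint 185 bp downstream, with the untranslated first exons of Cxcl16 and Zmynd15) was among the weakest peaks in unstimulated cells. Its score was 53 in Veh and 89 in T0, and 199 in LPS and 295 in T0-LPS, at percentile 0.249, 4.06, 29.8 and 50.8. The order was therefore Veh, T0, LPS and T0-LPS from lowest to highest. It was 29.5 points higher in LPS than in Veh, which 1.77% of all shared regions reached, and 46.7 points higher in T0-LPS than in T0, which 0.660% reached. In contrast to the Cxcl10 promoter, it also stood higher with T0 in stimulated cells, by 21.0 points for T0-LPS against LPS, which 0.780% of all shared regions reached. Among the regions with a peak in every list, its percentile was 0.0076 in Veh and 2.07 in T0, and 16.9 in LPS and 43.3 in T0-LPS, with a difference of 26.4 points for T0-LPS against LPS. The peak was 350 and 349 bp wide in Veh and T0, and 624 and 526 bp wide in LPS and T0-LPS. As the start of Zmynd15 lies within 1 kb of this region, whose midpoint is in untranslated sequence of both genes, the data do not assign it to 1 of the 2 genes.

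An intergenic region 7996 bp upstream of the Cxcl16 TSS (chr11:70467667-70468294) had the same order of the stimulated lists at a higher level. Its percentile was 58.4 in Veh and 39.4 in T0, and 72.4 in LPS and 83.1 in T0-LPS. T0 without LPS differed from Veh by -19.0 points, and T0-LPS was 10.7 points above LPS, so that the sign of the T0 difference was not the same without and with LPS. Against T0, T0-LPS was 43.6 points higher, as far as 0.794% of all shared regions. Farther upstream, a region at 29861 bp (chr11:70489629-70490062) was at 76.0, 56.3, 83.4 and 78.6, and one at 68809 bp (chr11:70528590-70528996) at 33.1, 14.1, 49.1 and 30.3. In both of these, T0 stood below Veh and T0-LPS below LPS.

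Absence from the T0 list was seen at 4 of the 17 Veh regions near Cxcl16, where the share over all Veh regions was 18.1%. The region 15547 bp upstream (chr11:70475243-70475820) was at percentile 9.01 in Veh, 27.8 in LPS and 22.0 in T0-LPS, and that 37942 bp upstream (chr11:70497767-70498085) at 15.8, 28.1 and 6.84. Neither had room for a removed peak in T0. The region 13106 bp downstream of the TSS (chr11:70446763-70446995) was at 19.8 in Veh, 19.1 in LPS and 5.86 in T0-LPS, and here the T0 numbering left room for 1 removed peak. All 3 had a T0-LPS peak, so that they were absent with T0 alone. The last, 12417 bp downstream (chr11:70447480-70447656), had a Veh peak at percentile 10.0 and none elsewhere, with room for 1 removed peak in the T0 list and none in LPS and T0-LPS. Conversely, the region 83664 bp downstream (chr11:70376159-70376483) was at 8.82 in LPS and 3.98 in T0-LPS, and Veh and T0 had neither a peak nor room. All of these peaks were below the median of their lists.

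The regions near Cxcl16 included the starts of several neighbours. The strongest in Veh, T0 and T0-LPS lay at the start of Arrb2 (chr11:70432101-70432766), which encodes beta-arrestin 2, at percentile 77.3, 74.7, 80.3 and 88.4 from Veh to T0-LPS. A region in its intron (chr11:70433615-70433933) was at 13.8, 2.48, 26.6 and 3.02, and T0-LPS differed there from LPS by -23.6 points, the lowest value of the 28 regions shared by these lists. At the start of Psmb6, a proteasome subunit gene (chr11:70525140-70525486), the percentile was 24.0, 23.6, 27.3 and 48.6, and T0-LPS was 21.3 points above LPS, the highest value of the 28. Regions at Med11, a Mediator subunit gene, were at 54.3, 54.6, 66.9 and 63.2 (chr11:70451787-70452463) and at 25.2, 9.86, 17.9 and 29.2 (chr11:70453201-70453856). That at the start of Pelp1 (chr11:70409930-70410351) was at 12.6, 2.00, 7.43 and 21.4, and that at Pld2 (chr11:70539888-70540649) at 62.0, 55.5, 65.3 and 61.8. Of the 2 distal intergenic regions left, that 85474 bp downstream (chr11:70374372-70374649) was at 36.1, 29.5, 28.1 and 30.1. The other, 87329 bp downstream (chr11:70372449-70372862), was at 56.9, 24.1, 58.7 and 60.2, so that it was low in T0 alone. Its difference of -32.7 points for T0 against Veh was the lowest of all 24 shared regions, and 1.14% of all shared regions were lower by as much.

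**Figure D2:**
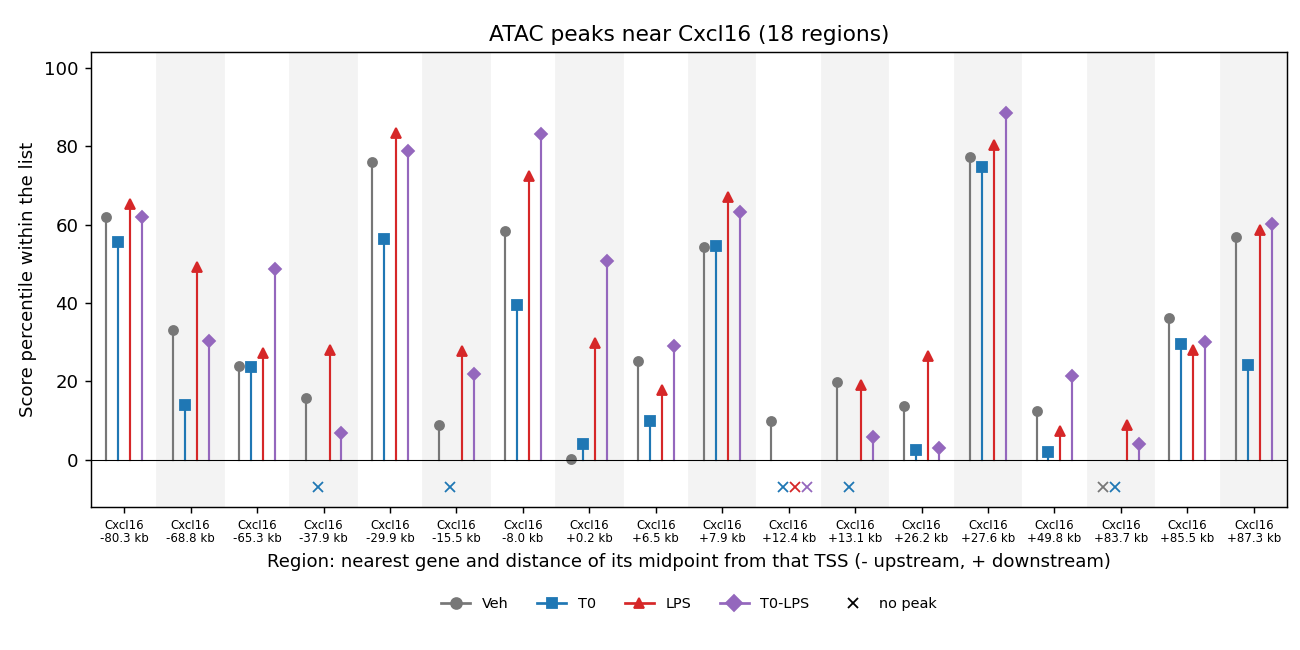
Score percentile within the list (vertical axis) of the 18 regions near Cxcl16, ordered from upstream (left) to downstream, with symbols for Veh, T0, LPS and T0-LPS and crosses for absent peaks as in the plot of the Cxcl9, Cxcl10 and Cxcl11 cluster. The region at the TSS stood at 0.249 in Veh and at 50.8 in T0-LPS.

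The limit of 100 kb fell between the following regions. On chromosome 5 the farthest region inside it lay 76198 bp and the nearest outside 101724 bp from a member TSS, the latter at percentile 38.1 in Veh and 25.0 in T0, and 35.9 in LPS and 45.8 in T0-LPS. On chromosome 11 the corresponding distances were 87329 and 102634 bp, and the region outside was at 56.3, 51.6, 54.0 and 61.7.

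Across both loci, 18 of the 28 regions shared by Veh and LPS stood higher in LPS and 10 lower, against 39.8% and 60.2% of all shared regions. In the cluster 6 stood higher and 6 lower. Of the 31 regions with an LPS peak, 3 had no Veh peak, where the share over all regions was 6.14%, and of the 29 with a Veh peak, 1 was absent from LPS, against 13.0% over all regions. Among 28 regions shared by Veh and LPS, 10 were higher by at least 10 points in LPS, against 11.4% of all shared regions, and 3 were lower by at least 10 points, against 25.2%. The median difference was 3.40 points, against -2.01 over all shared regions. Among the regions with a peak in every list it was 7.69 points. There 10 of 23 were higher and 2 lower by at least 10 points, against 18.1% and 19.0% of all such regions. With a window of 50 kb the median difference was 7.75, and with lists of equal length 6.73. Near Cxcl16, 7 regions were higher by at least 10 points and 0 were lower by as much, and in the cluster 3 were higher and 3 lower. Peaks were wider in LPS at 16 of the 28 regions and narrower at 12, where 67.8% of all regions were narrower. The median difference in width was 1.90%, against -5.56% over all regions.

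LPS after T0 was read from T0-LPS against T0. Of 28 regions with a T0-LPS peak, 5 were absent from T0, against 11.7% over all regions, and 1 of the 24 regions with a T0 peak was absent from T0-LPS, against 7.70%. Of 23 shared regions, 12 were higher by at least 10 points in T0-LPS, where the share of all shared regions was 20.5%, and 2 were lower by as much, against 16.8%. Among the regions with a peak in every list the median difference was 9.30 points. There 11 of 23 were higher and 2 lower by at least 10 points, against 18.5% and 19.7% of all such regions. The median difference of the shared regions was 10.1 points, against 0.597 over all shared regions. It was 19.3 points near Cxcl16 and 3.10 in the cluster, where 6 of 10 shared regions stood higher in T0-LPS. Near Cxcl16 all 13 shared regions stood higher in T0-LPS, by 0.537 to 46.7 points, against 53.5% of all shared regions, but among the regions with a peak in every list 2 of the 13 stood lower, with differences of -1.43 and -0.148 points. Peaks were wider in T0-LPS at 20 of 22 regions that held 1 peak in each of these lists. They were narrower at 2, where 44.9% of all such regions were narrower. The median difference in width was 17.6%, against 1.38% over all regions.

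**Figure D3:**
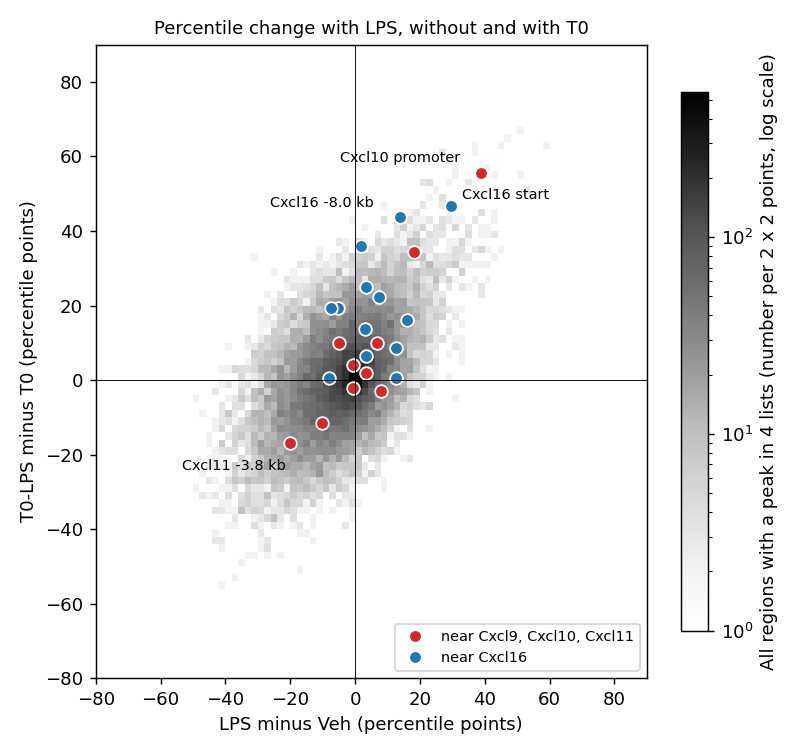
Difference in percentile points for LPS minus Veh (horizontal axis) against T0-LPS minus T0 (vertical axis) for the 23 member regions with a peak in all 4 lists, in red near Cxcl9, Cxcl10 and Cxcl11 and in blue near Cxcl16, over all 26439 such regions (grey, number per square on a log scale). The Cxcl10 promoter lies at 38.9 and 55.6 and the Cxcl16 start at 29.5 and 46.7, both in the upper right part of the plot. The region 3.8 kb upstream of Cxcl11 lies in the lower left part at -20.0 and -16.9.

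T0 against Veh asked how LXR activation alone changed accessibility. Of the 29 regions with a Veh peak, 5 were absent from T0, against 18.1% over all regions, and 0 of the 24 with a T0 peak were absent from Veh, against 0.729%. Of the 24 shared regions, 11 were lower by at least 10 points in T0, against 34.1% of all shared regions, and 1 was higher by as much, the region at Scarb2, against 2.01%. The median difference was -7.59 points, against -5.58 over all shared regions, so that the chemokine regions were close to the whole list in this comparison. Among the regions with a peak in every list the median difference of the 23 members was -0.985. There 3 were higher and 3 lower by at least 10 points, against 12.8% and 12.9% of all such regions. Peaks were narrower in T0 at 22 of 24 regions, against 87.6% of all regions, with a median difference of -9.87%, against -11.3% over all regions.

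T0-LPS against LPS asked the same in stimulated cells, after a longer time with agonist. Of the 31 regions with an LPS peak, 3 were absent from T0-LPS, against 9.97% over all regions, all of them in the cluster, and 0 of the 28 with a T0-LPS peak were absent from LPS, against 3.37%. Of the 28 shared regions, 6 were higher by at least 10 points in T0-LPS, against 7.36% of all shared regions, and 6 were lower by as much, against 19.3%. The regions higher by at least 10 points were at the TSS of Cxcl16, 7996 bp upstream of it, and at Psmb6, Pelp1, Med11 and Scarb2, 5 of them near Cxcl16. The median difference was -3.00 points, against -1.76 over all shared regions. Among the regions with a peak in every list it was 0.382 points, with the opposite sign. There 7 of 23 were higher and 2 lower by at least 10 points, against 13.0% and 13.0% of all such regions. The 4 comparisons share lists with one another (T0 enters 2 of them, as do Veh, LPS and T0-LPS), and their values are not independent.

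NF-kB matches were found in regions that stood higher with LPS. In the central 200 bp, 4 of 32 regions (12.5%) had a match, against 4.30% of 37618 regions scanned, and 3 of these 4 were in the cluster. They were the Cxcl10 promoter, the regions 4863 bp upstream of Cxcl10 and 9431 bp upstream of Cxcl11, and that 7996 bp upstream of Cxcl16, whose letters are printed above. In LPS these 4 stood 8.06 to 38.9 points above Veh, with a median of 16.1, against a median of 3.11 for the other 24 shared member regions. Over all regions the median difference was 3.82 points for 1174 regions with a match and -2.21 for 29434 without, and 35.3% and 10.5% of them were higher by at least 10 points. In T0-LPS against T0, 3 of the 4 were higher by 34.5 to 55.6 points and the other, upstream of Cxcl10, differed by -2.92 points. For T0-LPS against LPS the median over the 4 was 2.10 points, against -3.60 for the other 24 member regions. The 4 ranged from -3.75 to 10.7 points, and 2 of them were higher in T0-LPS. Over all regions these medians were close, at -1.40 points with a match and -1.78 without. For T0 against Veh the median over the 4 was -14.97 points, against -6.55 for the other 20 shared member regions. Over all regions it was -6.26 points with a match and -5.57 without. A match is a description of letters, and binding was not measured.

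Of the other motifs, STAT/GAS matched in as many member windows as NF-kB, and IRF/ISRE and PU.1 were found at shares close to those of all regions. IRF/ISRE matched in 1 of 32 windows (3.13%, against 3.79% of all regions), that 4490 bp upstream of Cxcl9, which stood 29.9 points higher in LPS. STAT/GAS matched in 4 (12.5%, against 5.52%), AP-1 in 7 (21.9%, against 16.6%) and PU.1 in 3 (9.38%, against 8.55%). The 3 STAT/GAS regions shared by Veh and LPS also stood higher in LPS, by 8.06 to 18.7 points with a median of 12.3. Over all regions the median difference was -2.32 points with a STAT/GAS match and -1.99 without. The nuclear receptor half-site matched in 2 windows (6.25%, against 11.9%), both near Cxcl16, and in 0 of the 14 windows of the cluster. The half-site of the Cxcl9 promoter shown above lay outside every region.

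**Figure D4:**
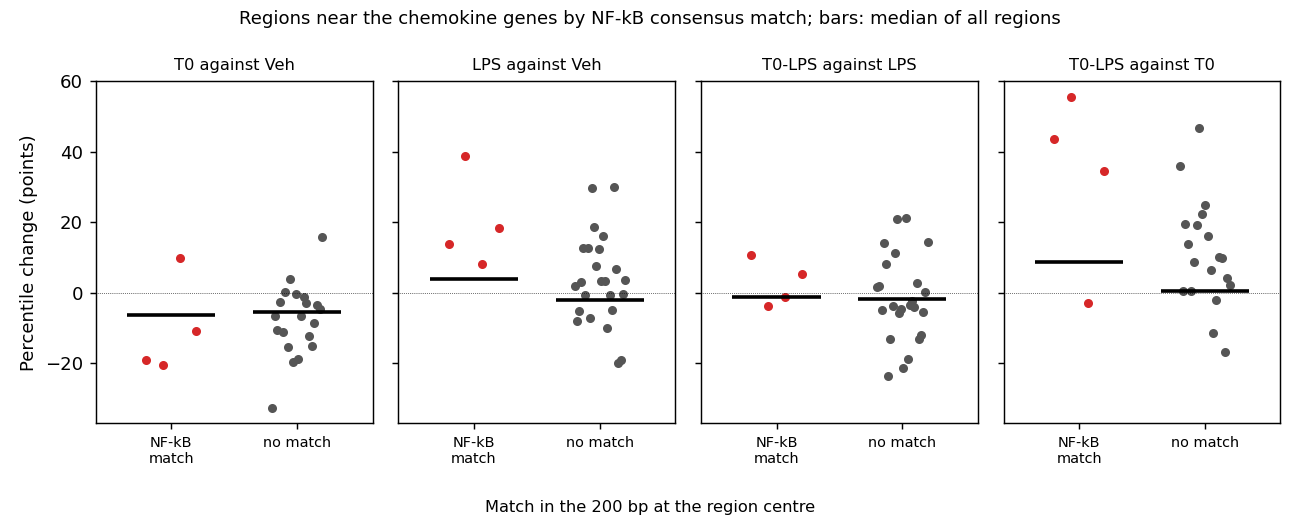
Percentile differences (vertical axis, points) of the member regions with (red) and without (grey) an NF-kB match in the central 200 bp, in 1 panel per comparison, with horizontal bars at the median over all regions of the same class. In LPS against Veh the 4 regions with a match lie between 8.06 and 38.9, and the bars over all regions lie at 3.82 with a match and -2.21 without.

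Receptors and processing enzymes of these chemokines were read from the peaks at their own starts, within 1 kb of the TSS. At Cxcr3, the receptor of CXCL9, CXCL10 and CXCL11, the start was at percentile 46.0 in Veh and 17.1 in T0, and 4.21 in LPS and 0.703 in T0-LPS, the reverse of the Cxcl10 promoter with respect to LPS. Cxcr6, the receptor of CXCL16, had no region at its start. At Dpp4, a protease that trims the amino terminus of these chemokines, a weak peak was found in Veh (7.53) and LPS (3.06) and in neither list with T0. The sheddase genes Adam10 (76.2, 70.0, 77.2 and 84.5 from Veh to T0-LPS) and Adam17 (88.7, 90.3, 85.7 and 88.2) were strong in every list. Of the 4 genes of this list with a start peak in Veh and LPS, 0 were higher and 1, Cxcr3, was lower by at least 10 points in LPS.

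In the interferon pathway, Ifnb1, which encodes interferon beta, had a start peak in LPS alone, at percentile 22.8. The 4 receptor genes Ifnar1, Ifnar2, Ifngr1 and Ifngr2 had start peaks in every list, and 0 of 4 differed by at least 10 points in LPS against Veh, T0 against Veh or T0-LPS against LPS. In T0-LPS against T0, 1 of the 4 was higher by as much, Ifnar2 (48.8 in T0 and 59.3 in T0-LPS), and 0 were lower. Among the kinase and factor genes, the start of Jak2 was higher in LPS than in Veh by over 10 points, at 68.9, 66.3, 79.3 and 83.3. The start of Irf8 was lower in LPS, at 46.1, 28.4, 32.1 and 43.3, and that of Irf1 was at 61.4, 50.8, 65.0 and 71.8. In T0 against Veh, 0 of the 9 kinase and factor genes with a start peak in both lists were higher and 2, Irf1 and Irf8, were lower by at least 10 points.

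The members were set beside the neutrophil-attracting CXC genes of chromosome 5 (Cxcl1, Cxcl2, Cxcl3, Cxcl5, Ppbp, Pf4 and Cxcl15, 16 regions) and 11 interferon-stimulated antiviral genes (62 regions). They stood out in value mainly near Cxcl16, in the comparisons with LPS. The share of regions with a peak in every list was 71.9% for the members, 87.5% for the neutrophil-attracting genes and 67.7% for the antiviral genes, against 70.2% of all regions. In LPS against Veh, 2 of 14 shared regions of the neutrophil-attracting genes and 6 of 50 of the antiviral genes were higher by at least 10 points, and the medians were -4.30 and 1.58 points, against 10 of 28 and 3.40 points for the members. In T0-LPS against T0 the medians were 3.18, 3.03 and 10.1 points in the same order. Taken apart, the cluster had a median of 1.48 points for LPS against Veh and 3.10 for T0-LPS against T0. Near Cxcl16 these medians were 5.38 and 19.3 points. In T0-LPS against T0 the cluster by itself was thus close to both other gene sets. In LPS against Veh it was close to the antiviral genes and above the neutrophil-attracting genes. The T0 list lacked 1 of 15 Veh regions of the neutrophil-attracting genes and 15 of 59 of the antiviral genes, against 5 of 29 for the members. Over all Veh regions the share was 18.1%, close to that of the members. These differences between gene sets were not tested. At single starts of the antiviral genes, 0 of 10 with a peak in Veh and LPS were higher by at least 10 points in LPS and 2 were lower, Ifit2 (70.9 in Veh, 46.8 in LPS) and Oas1a (44.4 and 26.2). Isg15, an antiviral ubiquitin-like gene, had a start peak in LPS (27.3) and T0-LPS (13.5) alone. The start of Cxcl2, a neutrophil chemoattractant, was at 69.6, 57.1, 70.1 and 73.3 from Veh to T0-LPS.

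The cells were checked by peaks within 1 kb of the starts of cell type markers. All 8 macrophage markers had a peak in every list, against 0 of 5 T cell, 1 of 4 B cell (Ms4a1), 1 of 4 neutrophil (S100a8) and 2 of 3 dendritic cell markers (Flt3 and Zbtb46) in every list. Of 3 fibroblast markers, Col1a1 had a peak in Veh alone. The defining T cell gene Cd3e, the B cell gene Cd79a and the neutrophil genes Ly6g and Mpo had none in any list. As the enhancer filter itself used macrophage histone marks, which peaks of other cell types could have been removed was not tested.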

How the data were processed

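ATAC-seq was performed by the authors on 16 libraries of BMDM, 4 per group. According to the submitters' processing notes and the methods of the study, reads were trimmed with cutadapt, aligned to mm10 with Bowtie2 and freed of PCR duplicates with SAMtools. Peaks were called with MACS2 (q of 0.001, shift 88, extension 177) from all 4 libraries of each group jointly and kept where they corresponded to macrophage enhancers with H3K27ac or H3K4me2. The deposited score of each peak came from the peak caller and was not normalized between groups. By the peak numbers, the filter retained 65.3% of the called Veh peaks, 73.0% of the T0 peaks, 69.2% of the LPS peaks and 72.6% of the T0-LPS peaks. Read numbers were not used here, and the sequencing depth of single libraries is therefore unknown.

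Peaks that overlapped by at least 1 bp were merged (Python 3.11.15, pandas 2.3.3), and each region took the score of its strongest peak as a percentile within the list. TSSs, exons and introns were those of the GENCODE vM21 basic annotation (GRCm38), assigned at the region midpoint. A difference of 10 percentile points was used to count higher and lower regions, and the same counts over all regions are given beside them. Motifs were searched in the central 200 bp and in promoters from RefSeq, in which 2 of the 4 genes were found. All 37620 regions on named chromosomes fitted the lengths in GRCm38. Scripts were tested on simulated data. Regions were described one by one where they lacked a peak in a list, lay nearest to a member TSS, or had the 2 largest rises or falls in a comparison, and the others by value. The gene, marker and motif lists and the members were chosen with earlier results of these data known. The alternatives tried were the window, the merging gap, the overlap, a score minimum, lists of equal length, other transcript starts, and percentiles of width or among regions in every list. Some single-gene values are not reported here.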

Additional observations from a re-analysis of the deposited data

How the results depend on the processing

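Of 89 values recomputed under other settings, 68 stayed within the limits set, 20 moved and 1 took the opposite sign. With a window of 200 kb there were 50 regions near the genes, in place of 32. For T0 against Veh, the 5 regions absent from T0 became 8 with a window of 200 kb, 1 with lists of equal length and 0 at or above the median score. In that last setting a region counted only where its peak reached the median score of the list that held it. The list without the peak was kept whole. The 0 regions absent from Veh became 2 with a reciprocal overlap of 50% and 3 with lists of equal length. The median difference of -7.59 points became -1.06 with lists of equal length, -0.985 among regions with a peak in all 4 lists and -1.97 as a percentile of width. For LPS against Veh, the 1 region absent from LPS became 5 with a window of 200 kb and 0 at or above the median score, and the 3 absent from Veh became 6 with lists of equal length and 0 at or above the median score. The median difference of 3.40 points became 7.69 among regions with a peak in all 4 lists, 7.75 with a window of 50 kb and 6.73 with lists of equal length. For T0-LPS against LPS, the 3 regions absent from T0-LPS became 0 at or above the median score, the 0 absent from LPS became 1 with a window of 200 kb and 1 with lists of equal length, and the median difference of -3.00 points became 0.382 among regions with a peak in all 4 lists. For T0-LPS against T0, the 1 region absent from T0-LPS became 3 with a window of 200 kb, 2 with lists of equal length and 0 at or above the median score, and the 5 absent from T0 became 0 at or above the median score. Where the setting changed the regions or peaks that were counted, the change follows from its construction, and otherwise the cause was not tested.

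No paired analysis was possible because the 4 libraries of each group were pooled before peaks were called, and leaving out a replicate could not be run for the same reason. Presence and absence of peaks near these genes concern weak peaks, since each of these counts was 0 at or above the median score, and a weak peak can cross the caller's threshold with depth, which is unknown here.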
